A study of Mus musculus with 8 samples.

Results

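The genes described here are 9 calcium-handling genes of neurons, measured in striatal medium spiny neurons of a Huntington's disease model and its control. They were taken by gene name: every probe that is not a control spot and whose name in the scanner files is Hpca, Hpcal1, Hpcal4, Ncald, Vsnl1, Calb1, Calm2, Pcp4 or Strn. That gave 15 probes of 55681, and 9 gene names of 34844, with 2 probes for each of 6 genes and 1 probe for each of Vsnl1, Pcp4 and Strn. The members were chosen from the measured difference between the genotypes on these same arrays, so that difference is a description for them. Intervals and counts past a threshold from the fit over all probes are printed beside it for scale, and nothing rests on them.

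RNA was measured on 8 Agilent mouse arrays with 1 dye. The 4 control arrays, called WT here, hold neurons of WT;Scn4b-Venus mice, and the other 4 hold neurons of R6/2;Scn4b-Venus mice. The R6/2 line is transgenic for the first exon of the human huntingtin gene, with a CAG repeat expanded into the disease range. The Venus reporter, a yellow fluorescent protein tied to the sodium channel subunit gene Scn4b, is carried by both genotypes, and the animals of both were male and 4 weeks old. The neurons were sorted for Venus and against propidium iodide, a dye that enters dead cells, so both groups hold only cells in which the reporter was bright enough to pass the gate. The labels give a replicate number but not whether each array is a separate animal or a pool, so every spread and p-value below measures the variation between these arrays. The transgene itself was not analysed here.

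Calcium that enters a neuron acts through proteins with EF-hands, helix-loop-helix folds that hold a calcium ion. Neuronal calcium sensors such as hippocalcin carry a fatty acyl chain that is tucked away without calcium and swings out when calcium binds, which moves the protein to membranes. Calmodulin has no such anchor and instead wraps around target peptides in kinases, phosphatases, channels and scaffolds, and calbindin acts mainly as a buffer that takes up free calcium. The set therefore covers sensors (Hpca, Hpcal1, Hpcal4, Ncald and Vsnl1), a buffer (Calb1), calmodulin itself (Calm2) and only 2 calmodulin-binding proteins (Pcp4 and Strn).

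Each probe is a single DNA strand of 60 bases that reads 1 stretch of a transcript. The stretches matter here because genes with 2 probes gave 2 readings of the same RNA at different places. A 30-base window is shown for the probes on which the results turn, with the hexamer AATAAA, the canonical polyadenylation signal, in capitals where a probe holds it. Positions in names are the first base of the probe in the transcript that the array design gives for it.
Hpca, position 876: gcctctggagaagtgaaacctgcaaggaag
Hpca, position 1566: taataacttcaaAATAAAgtcttgtttcag
Vsnl1, position 1473: cttaaaaatcctgctcaactactcattaag
Calm2, position 924: gcgtggactgtggacagtcaacaatatgta
Calm2, position 1127: ccaagttgtatatttgttttccAATAAAaa
Calb1, position 2592: tttaaagattagccaacAATAAAtcctaga
Calb1, position 4088: tggggtttctggattcttggcaacattcta
Ncald, position 608: agaaaatatatgggaactttttcccttacg
Ncald, position 3641: gagattttccttAATAAActgcccctagca

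The scanner files place these probes on the mouse build mm9. The Hpca probes lie on the minus strand at chr4:128789510-128789569 and chr4:128788820-128788879, which is 690 bases apart in the genome as in the transcript. The Vsnl1 probe is at chr12:11332454-11332513 on the minus strand. The Calm2 probes are at chr17:87832973-87833032 and chr17:87832770-87832829 on the minus strand, 203 bases apart, and the Calb1 probes are at chr4:15833582-15833641 and chr4:15835078-15835137 on the plus strand, 1496 bases apart. The Hpcal1 probe at position 593 spans chr12:17793313-17794369 on the plus strand, 1057 bases of genome for its 60 bases, so it reads across a splice junction. An annotation of mm9 was not used here, so coding and untranslated parts are not told apart. AATAAA on the sense strand was found in 4 of the 15 probes, those at Hpca 1566, Ncald 3641, Calb1 2592 and Calm2 1127, against 10.1% of all 55681 probes of the same length, and on the antisense strand in 0 of 15 against 3.74%. The variant ATTAAA was in 0 of 15 on the sense strand (3.95% of all probes) and in 2 of 15 on the antisense strand (2.53%). None of the 15 shared a run of 20 bases with any other probe of the array, and the longest run shared by probes of different member genes was 9 bases.

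Levels are given as log2 of the processed intensity minus the array's 75th percentile, so 0 is the 75th percentile of that array. A difference is R6/2 minus WT on this scale, with the standard error from limma. For standard errors, intervals and p-values, limma moves the variance of each probe toward that of all tested probes. A level holds for comparing 1 probe between arrays and not for ranking genes, since probes hybridise with different strength. A spot counts as detected when the scanner software marks it as well above background. By that mark 13 of the 15 probes were detected on all 8 arrays, the Ncald probe at position 3641 on 3 arrays of each group, and the Ncald probe at position 608 on no array. None of the 120 member spots was saturated or marked as an outlier.

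The arrays differed in signal. Of all probes, 50.2% were well above background on WT array 1 and between 67.8% and 78.8% on the other 7 arrays. R6/2 array 4 was alone on the second slide and the other 7 shared the first. The sorted cells carried the markers of their label: all 15 medium spiny neuron markers were detected on all 8 arrays. All 15 had a value below 0 for R6/2 minus WT (median -0.53), against 46.0% of 26966 genes by their brightest probe. With quantile normalization 14 of the 15 were negative, against 47.3% of all tested probes. In the main fit 6 of the 15 were lower at an unadjusted p under 0.05, against 3.2% of genes. Their summed linear level, in multiples of the 75th percentile, was 1084 to 1332 on WT arrays and 795 to 884 on R6/2 arrays, so the groups did not overlap. A lower value in such a sample can come from fewer cells of a type or from less RNA per cell, and these cannot be told apart. Of 8 markers of cortical glutamatergic neurons 3 were tested, with summed levels of 0.958 to 1.13 on WT and 0.847 to 1.79 on R6/2 arrays, and Neurod6 and Slc17a6 were among those detected on no array. All 6 oligodendrocyte markers had a negative difference (median -0.84), with summed levels of 6.24 to 41.2 on WT and 6.10 to 13.5 on R6/2 arrays. Of the interneuron markers 7 of 10 were tested, 4 of them negative, while Calb2 and Nkx2-1 were detected on no array. Their summed level was 168 to 189 on WT and 149 to 173 on R6/2 arrays, nearly all of it from 1 bright probe, and the other 6 markers summed to 2.64 to 5.73 on WT and 2.91 to 12.8 on R6/2 arrays. Of 6 microglia markers 5 were tested, 2 of them negative. Their summed level was 178 to 198 on WT and 147 to 172 on R6/2 arrays, so these groups did not overlap either. Most of it came from 1 bright Itgam probe, with 146.5 to 168.4 on WT and 121.2 to 146.4 on R6/2 arrays. Other tested Itgam probes had differences of -0.06 to 0.26. The other 4 markers summed to 19.0 to 31.4 on WT and 24.9 to 31.1 on R6/2 arrays. The part of any other cell type in the members' differences was not tested.

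**Figure D1:**
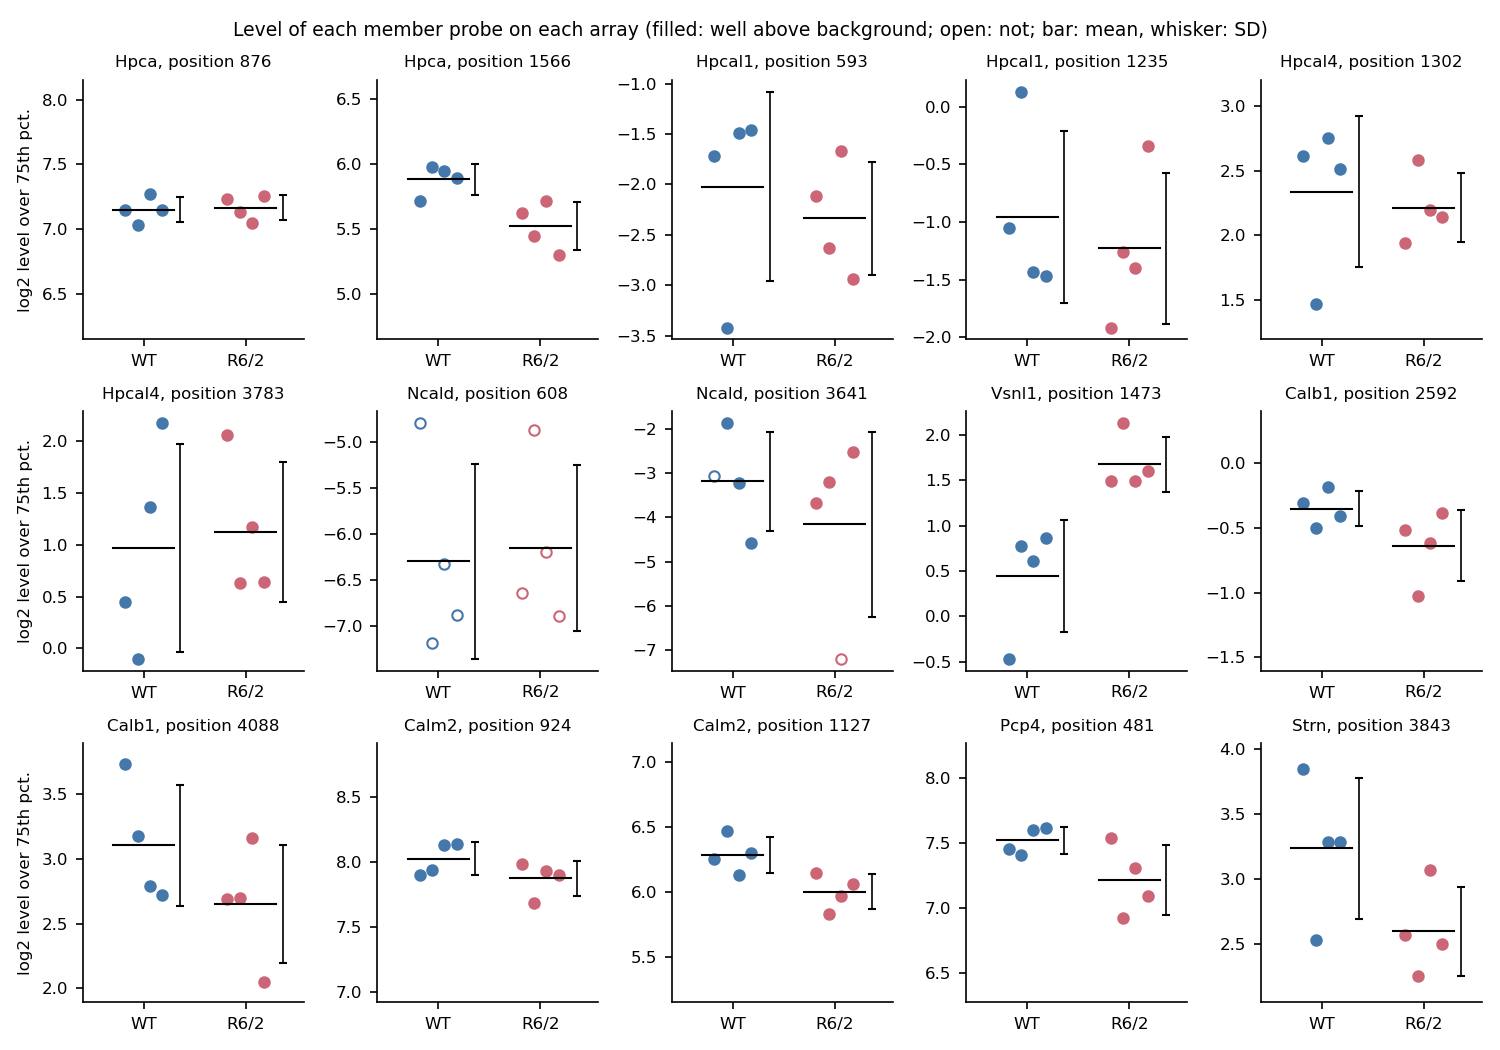
Level of each of the 15 member probes on each array, as log2 over the array's 75th percentile (vertical axis, its range set for each probe), for the 4 WT and 4 R6/2 arrays; filled points were well above background, open points were not, bars are group means and whiskers are 1 SD. The R6/2 points of Vsnl1 lie between 1.49 and 2.13, above the WT points between -0.47 and 0.86, and in every other panel the groups overlap.

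Of the 14 tested probes, 11 had a negative difference, against 44.5% of the 41394 probes tested on the arrays, and the median difference was -0.29 for the member probes and 0.05 for all probes. With median scaling of the arrays 12 of 14 were negative, against 55% of all probes. None of the 14 passed an adjusted p of 0.05 (Benjamini-Hochberg over all tested probes, limma), where 0.00242% of all probes, or 1 probe, did. The members' adjusted p ranged from 0.568 to 0.990. At an unadjusted p under 0.05, 1 of 14 passed, against 7.02% of all probes (1 higher in R6/2, against 3.97%, and 0 lower, against 3.05%). The WT and R6/2 arrays did not overlap for 1 of 14, against 4.57% of all probes (1 higher, against 2.31%, and 0 lower, against 2.26%). That probe was Vsnl1 in both counts. Since the genes were picked with this comparison in view, nothing is read from these counts. The split of all probes at that unadjusted threshold depended on scaling, with 56.5% of them higher in R6/2 here, 48.2% with quantile normalization, 42.6% with normexp background correction and 38.9% with median scaling.

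Among the 5 sensors, Vsnl1 had the largest difference. It encodes visinin-like protein 1, a sensor of the hippocalcin-related branch that is found in many neurons and is measured in spinal fluid as a marker of neuronal injury. Its log2 levels were -0.47, 0.78, 0.61 and 0.86 on WT arrays 1 to 4 and 1.49, 2.13, 1.49 and 1.60 on R6/2 arrays 1 to 4. All R6/2 arrays were above all WT arrays. As processed intensities before scaling, the WT spots read 255, 587, 508 and 617 and the R6/2 spots 881, 1599, 1034 and 1159. The difference was 1.23 ± 0.33 (SE, n = 4 and 4), with a 95% interval of 0.47 to 1.99, which is 2.35-fold higher in R6/2. The lowest WT value came from array 1, the array with the smallest share of detected probes, and without that array the difference was 0.93.

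Hpca encodes hippocalcin, a sensor abundant in hippocampal and striatal projection neurons. Its upstream probe, at position 876, had log2 levels of 7.15, 7.03, 7.27 and 7.15 on the WT arrays and 7.23, 7.13, 7.05 and 7.25 on the R6/2 arrays. The groups lay over each other, with a difference of 0.02 ± 0.17 and a 95% interval of -0.38 to 0.41, and with median scaling it was -0.08. Its downstream probe, at position 1566, which holds AATAAA, had levels of 5.71, 5.97, 5.94 and 5.89 on WT and 5.62, 5.45, 5.71 and 5.29 on R6/2 arrays. Here 3 of the 4 R6/2 arrays were below the lowest WT array, and the difference was -0.36 ± 0.19, with an interval of -0.79 to 0.06. So the estimates at the probes of 1 gene differed, near 0 at one place and 77.8% of the WT level at the other, though their intervals overlapped.

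The ratio of the downstream to the upstream Hpca probe is taken within an array. It does not depend on scaling that subtracts 1 value per array, though quantile normalization and normexp can change it. Relative to its WT mean, this log2 ratio was -0.17, 0.21, -0.05 and 0.01 on the WT arrays and -0.34, -0.42, -0.06 and -0.69 on the R6/2 arrays. The R6/2 mean was -0.38 with an SD of 0.26, the WT SD was 0.16, and 3 of 4 R6/2 arrays lay below all WT arrays. R6/2 array 3 was within the WT range. The ratio was not computed for genes outside the set, so nothing is read from its size. The mean of both Hpca probes was 6.43, 6.50, 6.61 and 6.52 on WT and 6.43, 6.29, 6.38 and 6.27 on R6/2 arrays, a difference of -0.17. These means did not overlap between the groups, by a margin between WT array 1 and R6/2 array 1 that the second decimal does not show.

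**Figure D2:**
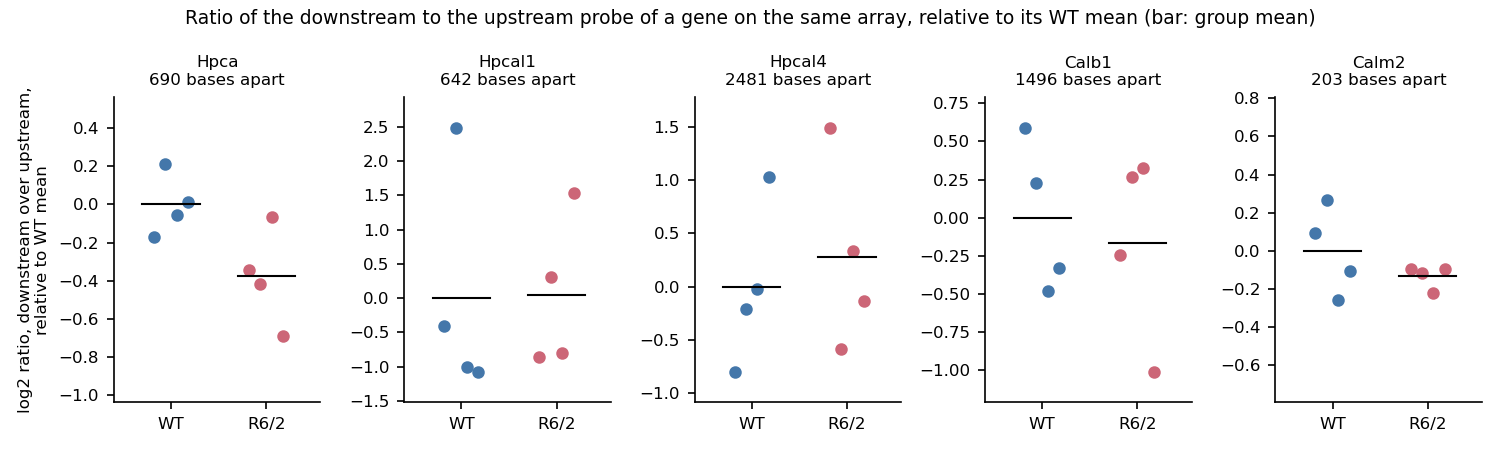
Log2 ratio of the downstream to the upstream probe of the 5 genes with both probes tested, for each array, minus the mean of the 4 WT arrays (vertical axis, its range set for each gene); bars are group means and the distance between the probes is given in transcript bases. The Hpca ratio averages -0.38 on R6/2 arrays with 3 of 4 below the WT range, and in the other 4 genes the R6/2 mean differs from WT by at most 0.28.

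The other visinin-like sensors, Hpcal1 and Hpcal4, overlapped between the groups at every probe. Hpcal1, hippocalcin-like 1, read -1.71, -3.42, -1.49 and -1.46 on WT and -2.12, -2.63, -1.67 and -2.94 on R6/2 arrays at the junction-spanning probe at position 593. The difference was -0.32 ± 0.49, and WT array 2 stood far below the other WT arrays, without which the difference was -0.78. At position 1235 the same array was instead the highest of the WT arrays, with 0.13 against -1.05, -1.43 and -1.47. The R6/2 levels there were -1.92, -1.26, -1.40 and -0.34, and the difference was -0.27 ± 0.45. The deviations of WT array 2 nearly cancelled in the mean of both probes, whose difference was -0.30 with SDs of 0.11 in WT and 0.23 in R6/2.

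Hpcal4 gave 2.61, 1.47, 2.75 and 2.51 on WT and 1.94, 2.58, 2.20 and 2.14 on R6/2 arrays at position 1302, a difference of -0.12 ± 0.32. At position 3783, 2481 bases downstream, the levels spread over 0.45, -0.10, 1.37 and 2.17 on WT and 2.06, 0.63, 1.17 and 0.64 on R6/2 arrays, with a difference of 0.15 ± 0.53. The 95% interval at the second probe ran from -1.06 to 1.37. WT array 2 was the lowest WT array at both Hpcal4 probes.

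Ncald encodes neurocalcin delta, a sensor of retina and brain. Its probe at position 608 was not well above background on any array, and no fold is given for it. At position 3641 the levels were -3.05, -1.86, -3.22 and -4.59 on WT and -3.68, -3.20, -7.22 and -2.53 on R6/2 arrays, where WT array 1 and R6/2 array 3 were not above background. The difference of -0.97 ± 1.01 rests on R6/2 array 3, and without it the difference was 0.05. Its interval of -3.28 to 1.33 was the widest among the members.

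**Figure D3:**
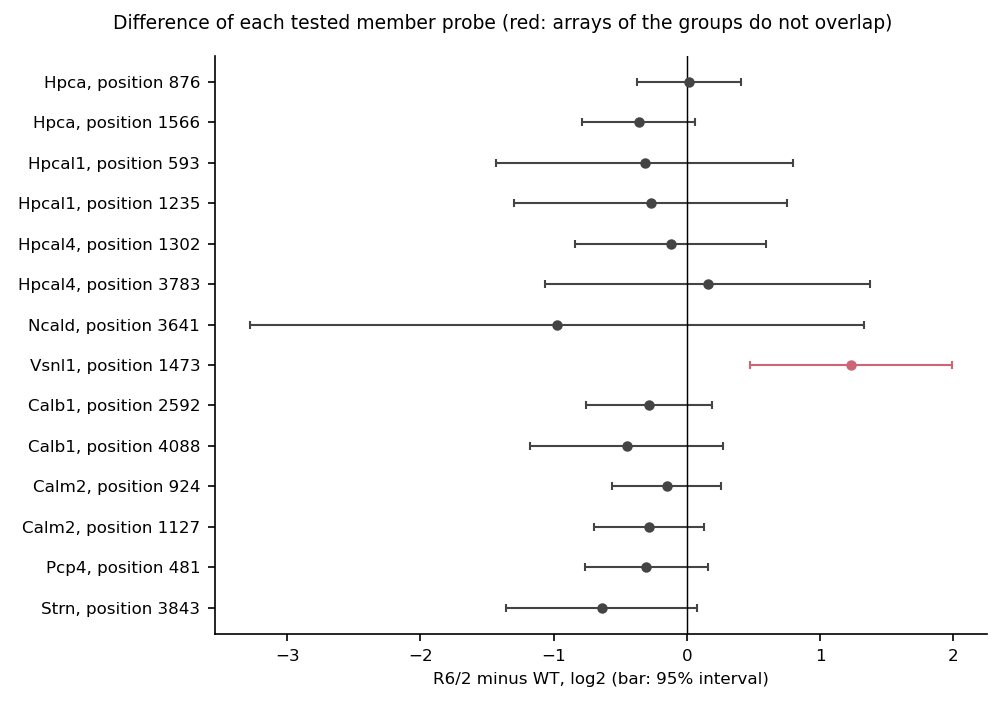
Difference R6/2 minus WT of each of the 14 tested member probes in log2 units (horizontal axis), with the 95% interval from limma over 4 and 4 arrays; red marks the probe whose groups do not overlap. The interval of Vsnl1 runs from 0.47 to 1.99, and that of Ncald, from -3.28 to 1.33, is the widest.

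Calb1, the buffer calbindin, is expressed by medium spiny neurons of the striatal matrix. At position 2592 its levels were -0.31, -0.51, -0.19 and -0.41 on WT and -0.52, -1.02, -0.62 and -0.39 on R6/2 arrays. Here 3 of 4 R6/2 arrays were below the lowest WT array, and R6/2 array 4 was inside the WT range. The difference was -0.29 ± 0.21. At position 4088, the levels were 3.73, 3.18, 2.79 and 2.72 on WT and 2.69, 2.70, 3.16 and 2.05 on R6/2 arrays. Again 3 of 4 R6/2 arrays were below the lowest WT array, but the exception was now array 3, and the difference was -0.45 ± 0.32. The mean of both probes differed by -0.37, or -0.26 to -0.46 when 1 array at a time was left out.

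Calm2 is 1 of several genes that encode an identical calmodulin protein, the general calcium sensor of cells. At position 924 it read 7.90, 7.94, 8.13 and 8.14 on WT and 7.99, 7.68, 7.93 and 7.90 on R6/2 arrays, a difference of -0.15 ± 0.18. At position 1127, the probe with AATAAA, it read 6.26, 6.47, 6.13 and 6.30 on WT and 6.15, 5.83, 5.97 and 6.06 on R6/2 arrays, a difference of -0.29 ± 0.18. The downstream probe had 3 of 4 R6/2 arrays below the lowest WT array, and the upstream probe 2 of 4. Averaged over both probes, Calm2 was 7.08, 7.20, 7.13 and 7.22 on WT and 7.07, 6.76, 6.95 and 6.98 on R6/2 arrays, a difference of -0.22. By these means Hpca, Calm2 and Vsnl1 had groups that did not overlap, 3 of 9 genes, where 4.61% of 26966 genes did. For the first pair, lower in R6/2, the share of all genes was 2.21%, and for Vsnl1, higher in R6/2, it was 2.4%. The Calm2 margin was narrow, with 7.080 on WT array 1 and 7.066 on R6/2 array 1. At each single probe of Hpca and Calm2 the groups overlapped. Since the genes were picked with this comparison in view, nothing is read from these gene counts.

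Pcp4 is a small protein with an IQ motif that binds calmodulin and speeds its exchange of calcium. Its levels were 7.45, 7.41, 7.60 and 7.61 on WT and 7.54, 6.92, 7.31 and 7.09 on R6/2 arrays. R6/2 array 1 was among the WT arrays and the other 3 lay below them, with a difference of -0.30 ± 0.20. Strn encodes striatin, a calmodulin-binding scaffold of dendrites that serves as a regulatory subunit of protein phosphatase 2A in the STRIPAK complex. Its levels were 3.84, 2.53, 3.29 and 3.28 on WT and 2.57, 2.25, 3.07 and 2.49 on R6/2 arrays. WT array 2 was within the R6/2 range and the other 3 WT arrays were above all R6/2 arrays. The difference was -0.64 ± 0.31, or 64.2% of the WT level, with an interval of -1.36 to 0.08, and leaving out 1 array at a time gave -0.87 to -0.44.

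In the authors' deposited table, the corrected p-values of the 15 member probes ran from 0.800 to 0.980. That table gives Vsnl1 as 2.35-fold up with an uncorrected p-value of 0.0118 from the authors' own test. The same test gave the downstream Hpca probe as 1.29-fold down with an uncorrected p-value of 0.0160. It gave the downstream Calm2 probe as 1.22-fold down with an uncorrected p-value of 0.0258. Strn was 1.56-fold down, with an uncorrected p-value of 0.0923 from that test.

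The spread between arrays of 1 genotype was only a part of how small a difference could be seen, since limma also draws on the variance of all tested probes. At the upstream Hpca probe, limma's standard error was 0.17 although the pooled SD was 0.10. The pooled SD of the member probes ran from 0.10 at the upstream Hpca probe to 1.68 at the Ncald probe, with a median of 0.48 over all tested probes. Compared with probes of like signal, 9 of 14 members had an SD above the median and 5 below it. Both Hpca and both Calm2 probes were below, at 0.10 against 0.15, 0.16 against 0.18, 0.13 against 0.14 and 0.14 against 0.18. The Calb1 probe at position 2592 lay furthest below, at 0.22 against 0.46. The downstream Hpcal4 probe had an SD of 0.86 where the median of probes of like signal was 0.38. For Vsnl1 these values were 0.49 and 0.38.

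**Figure D4:**
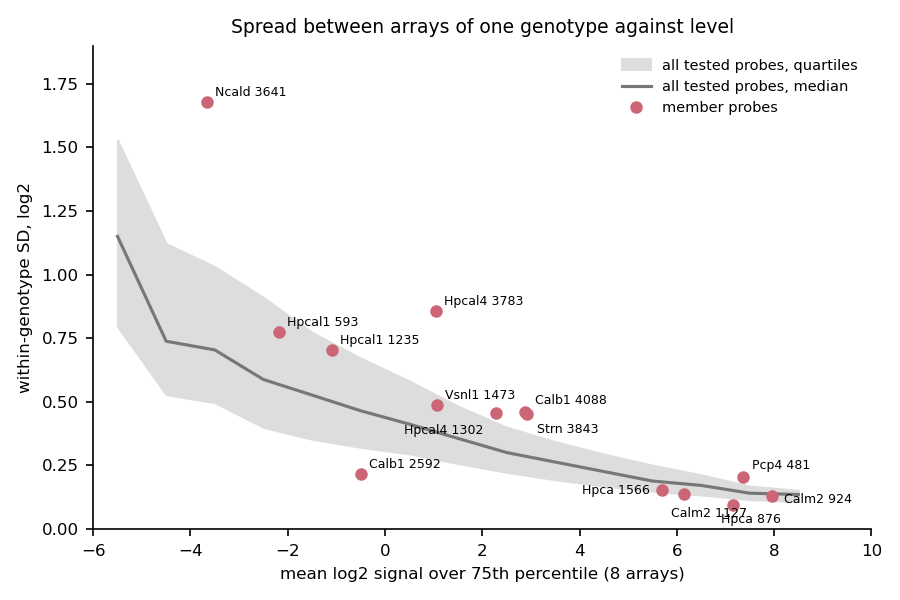
Pooled SD between arrays of 1 genotype in log2 units (vertical axis) against the mean log2 signal over 8 arrays (horizontal axis) for the 14 tested member probes, labelled by gene and position, with the median and quartiles of all tested probes. The median spread of all tested probes falls with signal. Among the members the spread is largest at the Ncald probe (1.68) and smallest at the upstream Hpca probe (0.10), without a steady fall between them.

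Other genes of calcium sensing and calmodulin signalling were read from 8 lists with 82 genes, of which 76 were tested, each represented by the brightest of its tested probes. None passed an adjusted p of 0.05 in limma, where 0.00371% of genes did. At an unadjusted p under 0.05, 16 were lower and 1 was higher in R6/2, together 22.4% of the 76, against 6.6% of 26966 genes by the same rule (3.2% lower and 3.4% higher). In all, 49 of 76 had a negative difference, against 46.0% of genes, and their median was -0.20 against 0.03. Under quantile, normexp and median scaling, 47 to 52 of 76 were negative and the median ran from -0.30 to -0.14. Over all tested probes, 47.3% were negative with quantile normalization, 51.9% with normexp and 55% with median scaling, with medians of 0.03, -0.01 and -0.05. These lists were also drawn up with earlier results of these arrays known, and the medium spiny neuron markers moved the same way, with a median of -0.53. Whether that shared direction has a part in the lists was not tested.

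The other neuronal calcium sensors, 7 of 8 tested, had a median of 0.16, with 5 positive and 2 negative. Kcnip2, a sensor that doubles as a subunit of Kv4 potassium channels, was the only one with an unadjusted p under 0.05, at -0.89 ± 0.25 with groups that did not overlap (adjusted p 0.570, limma). Guca1a, which regulates retinal guanylate cyclase, gave 0.75 ± 0.38 and was above background on 2 WT and 4 R6/2 arrays. Ncs1, the widely expressed founding sensor of the family, gave 0.24 ± 0.30.

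Of the calcium-binding proteins of the CaBP and calneuron family, 2 of 6 tested genes were lower at an unadjusted p under 0.05, and the median was -0.36. These were Caln1 (calneuron 1) at -0.69 ± 0.24 and Cabp1, a calmodulin-like regulator of channels, at -0.77 ± 0.29, though a second Cabp1 probe gave 0.09. Cabp2 stood at -0.54 ± 0.28.

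Calm3, which encodes the same calmodulin protein as Calm2, had a difference of -0.23 ± 0.18, and the dim calmodulin-like gene Calml3 had 0.31 ± 0.31. A second Calm3 probe gave 0.21, so the direction for Calm3 depended on the probe. Neither gene reached an unadjusted p under 0.05.

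Among other EF-hand buffers, 8 of 10 were tested, 2 were lower at that threshold and the median was -0.38. Necab1 and Necab3, neuronal EF-hand proteins, had differences of -0.77 ± 0.21 and -0.49 ± 0.16 and groups that did not overlap (adjusted p 0.570 and 0.634, limma). S100a1 had -0.88 ± 0.42. Calb2, the calbindin relative calretinin, was not above background on any array, and Pvalb, which is also in the interneuron list, had 0.89 ± 0.97.

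Small calmodulin-binding and IQ-motif proteins, the group nearest to Pcp4, had 4 of 14 lower and 0 higher at an unadjusted p under 0.05, with a median of -0.20. Arpp21, a striatal phosphoprotein that binds calmodulin when phosphorylated, had -0.90 ± 0.18 at its probe of highest level (adjusted p 0.438, limma) and between -0.24 and -0.15 at the others. Camkv, a kinase-like calmodulin binder without known kinase activity, had -0.77 ± 0.28, and Myo5a, the motor myosin Va with calmodulin as light chains, had -0.55 ± 0.22. In these 3 genes the groups did not overlap.

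Striatin partners in the STRIPAK complex, the list nearest to Strn, had 2 of 16 lower and 1 higher at that threshold, with a median of -0.08. Strip2 had -0.81 ± 0.26 and Slmap -0.48 ± 0.19, but a second probe gave 0.05 for Strip2 and 0.11 for Slmap, so the direction for both depended on the probe.

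Calcineurin, the phosphatase that calmodulin switches on, and its regulators had 0 of 8 at an unadjusted p under 0.05 and a median of 0.13, with 4 positive and 4 negative. The catalytic subunit gene Ppp3ca had -0.41 ± 0.21, the regulatory subunit gene Ppp3r1 -0.46 ± 0.30, and the inhibitor gene Rcan3 1.02 ± 0.45. Enzymes that calmodulin activates had 5 of 14 lower and 0 higher, with a median of -0.47. Camk4, a nuclear kinase, had -0.77 ± 0.18 (adjusted p 0.548, limma), with -0.58 to -0.35 at its other probes. Pde1b, a cyclic nucleotide phosphodiesterase abundant in striatum, had -0.74 ± 0.20, and the groups did not overlap for either gene. Pde1c had -1.47 ± 0.40 at its probe of highest level but -0.31 to 0.66 at the others. The genes listed but not tested were Rcvrn, Calml4, Calb2, Scgn, Camk1 and Adcy8. Nos1, neuronal nitric oxide synthase, is counted among the enzymes and is also an interneuron marker, and it had -0.33 ± 0.72.

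**Figure D5:**
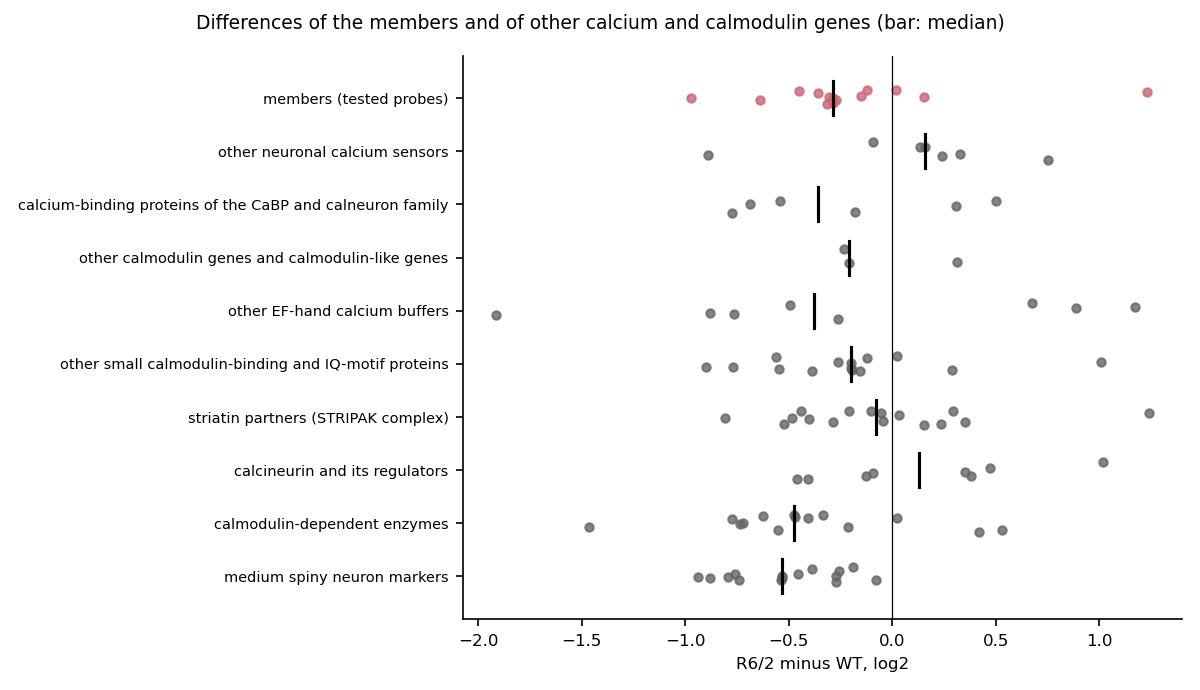
Difference R6/2 minus WT in log2 units (horizontal axis) for the 14 tested member probes, for the 76 tested genes of the 8 lists and for the 15 medium spiny neuron markers, 1 point for each probe or gene, with the median as a bar. The medians run from -0.53 for the markers and -0.47 for calmodulin-dependent enzymes to 0.16 for the other neuronal calcium sensors.

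The mean centred profile of the 9 genes over the 8 arrays was 0.09, 0.06, 0.17 and 0.06 on the WT arrays and 0.01, -0.08, -0.33 and 0.01 on the R6/2 arrays. R6/2 array 3 was lowest, and that value rests on the Ncald spot there, which was not above background and lay -3.55 from the gene's mean. Without Ncald the profile of the other 8 genes was 0.02, -0.16, 0.14 and 0.19 on the WT arrays and 0.02, -0.15, 0.07 and -0.13 on the R6/2 arrays. Over the named genes with a tested probe, closeness to the profile of all 9 genes was taken as the root mean square difference over the 8 arrays. The closest were Itgam (0.051), at the probe that made up most of the summed microglia level, Fgf23 (0.061) and the transcript AA522020 (0.066). Their own differences between the genotypes were -0.21, -0.18 and -0.17. This likeness depended on Ncald, since 0 of the 3 were among the closest 3 to the profile without Ncald, a comparison chosen after seeing the data. Ncald was left out on all 8 arrays there, and the part of the single spot was not tested.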

How the data were processed

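Total RNA of sorted neurons was measured on 8 arrays (4 WT, 4 R6/2), grouped by the labelled genotype. Per the file headers, the authors' scanner files hold 1 intensity per spot, made with Agilent Feature Extraction 10.7.3.1, background-subtracted and detrended, with surrogate values for dim spots, no scaling between arrays and probe coordinates on mm9. The authors' deposited series table holds intensity and log2 values and, per the file headers, a p-value from an unpaired t-test with Benjamini-Hochberg correction and an absolute fold change. It was used as an alternative and for the values credited to it.

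Here log2 of the processed intensity was taken, spots marked as outliers were dropped, replicate spots were averaged by probe and the array's 75th percentile over the non-control probes was subtracted. A damaged line in the scanner output of R6/2 array 3 left 62974 of 62976 spots. The 41394 of 55681 probes well above background on at least 4 of 8 arrays were fitted with limma 3.58.1 in R 4.3.3 (lmFit, eBayes, two-sided, no covariate), with Benjamini-Hochberg adjustment over all of them and a threshold of 0.05. The number of arrays limits the precision. The fit was also run on simulated data with independent errors and no slide effect, and nothing here rests on that run. Motifs and shared runs were counted in the deposited probe sequences with Python 3.11.15.

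The members, the lists and the tests were chosen with earlier results of these data known. Named besides the members are up to 3 genes of each list with the smallest unadjusted p, the 3 genes of most similar profile, genes shared with a marker list and markers detected on no array. Some genes that this rule names are not reported here. Alternatives were normexp (offset 50), quantile normalization, median scaling, the authors' log2 values, other filters, variance models and tests, a single slide, the replicate block, the probe of highest level and leaving out each array.

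Same-numbered arrays were checked for pairing: their deviations from the group means correlated at 0.022, -0.043, -0.0003 and -0.0054 over 41323 probes, so the numbers were not taken to pair them.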

Additional observations from a re-analysis of the deposited data

Results flagged for a closer look

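The Hpcal1 probe at position 593 read -3.42 on WT array 2, while the nearest of the other WT arrays read -1.71. The gap was 0.87 of the range of the 4 WT arrays, above Dixon's critical value for 4 samples. Of the 30 groups of 4 arrays examined for the member probes this was the only one past that value. Chance alone gives about 1 in 20 groups, so 1 flagged group among 30 is no more than chance would give.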

How the results depend on the processing

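No member probe was called under any of 18 alternatives, and 10 to 13 were lower in R6/2 under each. The 1 probe called over the whole array became 8 with normexp, with a variance trend and robust fit and with array weights, 7 with probes detected on all 8 arrays, 2 with quantile normalization, and 0 on the first slide alone and in the methods' t-test (2795 at an unadjusted p under 0.05). Leaving out 1 array gave 0 to 3 calls, 3 without WT array 1 and 0 without any other. Member probes whose groups did not overlap went from 1 to 2 with median scaling and on the first slide alone, and to between 1 and 3 without 1 array (3 without R6/2 array 1 or 3, 2 without WT array 1, 2 or 3 or R6/2 array 4). With fewer arrays, groups fail to overlap more readily for any probe. The share of all probes is not set beside these counts, or those of lower probes, for each alternative, so nothing is read from them. The mean Hpca difference was -0.091 with quantile normalization, -0.27 with median scaling and 0.016 by its probe of highest level. The causes were not tested. The Vsnl1 difference stayed between 0.93 and 1.37 in all 18. Some of these could not move it: the filters, the variance trend with robust fit and the replicate block leave a difference of means unchanged. The first slide alone also holds the same arrays as leaving out R6/2 array 4. Differences that changed sign when 1 array was left out were those of the upstream Hpca probe (-0.02 to 0.06), Hpcal1 at 1235 (-0.57 to 0.09), both Hpcal4 probes (-0.41 to 0.02 and -0.20 to 0.56) and Ncald (-1.52 to 0.05). With array weights the upstream Hpca probe was also negative (-0.04), as was Hpcal4 at 3783 (-0.16). With the replicate block, 0 probes were called in place of 1, and 2 of 8 arrays correlated best with their own number. Signal near background limits what Ncald can show.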
